A study of Mus musculus with 2 samples.

Results

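The genes described here are the mouse zinc finger protein genes named Zfp and a number on chromosomes 13 and 17, a set of 72 among 21755 protein-coding genes (31 on chromosome 13 and 41 on chromosome 17). They were found by symbol in the GENCODE annotation of the mm10 genome. The set was chosen by the fold enrichment of distal open regions, since the strongest of these cells included 1 nearest to Zfp960 and 1 nearest to Zfp677, so those distal values are given below as a description and support nothing. Open chromatin was measured by ATAC-seq, in which a transposase cuts accessible DNA and sequenced fragments pile up over open regions. The 2 libraries came from primary megakaryocytes, the platelet-forming cells of bone marrow, of male adult C57BL/6J mice aged 5 to 6 weeks. Each library was made from 50000 cells, no treatment or altered allele is named, and the 2 libraries form 1 group labelled as biological replicates 1 and 2. Both labels cite the same donor record, only the label of replicate 2 names sequencing instruments, and nothing says how the cells were purified. The spread between the replicates may therefore be technical in part.

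Most numbered Zfp genes encode C2H2 zinc finger proteins, many of them with a KRAB domain that recruits the corepressor TRIM28 and, through it, histone methyltransferases such as SETDB1. The family is known for binding and silencing retrotransposons and other repeats, and its genes lie in clusters that arose by repeated local duplication. Related neighbours therefore often share both coding and promoter sequence. A number after Zfp does not itself show a KRAB domain: Zfp131 is a BTB/POZ zinc finger protein, Zfp346 binds double-stranded RNA and Zfp598 is a ubiquitin ligase of stalled ribosomes.

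An open start is a region found in both replicates (regions overlapping by at least 1 base) within 500 bp of any annotated transcript start of the gene. Fold enrichment is the height of a peak over its local background, as the authors deposited it, and a member is given the highest value of its region in each replicate. The sequences that the results turn on come first. All are from the RefSeq copy of the mm10 assembly, GRCm38.p6, written 5′ to 3′. Of the 19 members in the chromosome 13 cluster at chr13:67038596-67827002, 17 shared an 18-base run at their start regions, shown here for 10 of them and for Zfp72, which lies on the same chromosome outside the cluster. The lines are read along the strand of each gene, and the capitals mark the bases aligned to the run.
Zfp458: tgcactGACTTGTGGGAAATGTAGtcccaa
Zfp457: ccaactGACTTGTGGGAAATGTAGtcccat
Zfp595: cgcactGACTTGTGGGAAATGTAGtcccta
Zfp759: ccaattGATTTGTGGGAAATGTAGtcccgg
Zfp738: ccaactGACTTGTGGGAAGTGTAGtcccgt
Zfp65: ccaactGACTTGTGGGAAGTGTAGtcccgt
Zfp493: cgcataGAGTTGTGGGAAATGTAGtcttgc
Zfp273: cgcataGACTTCTGGGAAATGTAGtttctc
Zfp456: cgcacaGACTTCTGGGAGATGTAGtccgca
Zfp87: aacacaGAACTCTGGGAAATGTAGtcgtgc
Zfp72: ctcacaGACTTGTGGGAAATGTAGtctcgc
The run was found by searching the start regions of this cluster, so its presence there is a description. Its centre lay between −55 and 11 bases from the nearest annotated start, negative being upstream, in the same orientation relative to the gene in all 17.

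The next set shows why the regions near Zfp960 were followed up. The start region of Zfp97, at chr17:17120828-17121493, had 6 copies nearby, at 90.7% to 100% identity. The lines give 50 bases from 6 of the 7 loci, on the forward strand. The Zfp97 line ends at the base before its RefSeq start of lowest coordinate, and the other lines are the best match to it. They need not lie just before a start: the Zfp960 line ends at chr17:17063778, while its RefSeq start is at 17064103. The RefSeq starts listed for BC002059, Gm51425, Gm5165 and Gm6712 also lie at higher coordinates than the ends of their lines. These bases are more alike than the whole regions: Gm51425 shows no difference here but was 90.7% identical over 603 aligned bases. Capitals mark bases that differ from Zfp97.
BC002059: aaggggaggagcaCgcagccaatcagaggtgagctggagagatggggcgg
Gm51425: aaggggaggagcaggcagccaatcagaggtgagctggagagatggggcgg
Zfp960: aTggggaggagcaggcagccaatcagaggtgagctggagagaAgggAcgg
Zfp97: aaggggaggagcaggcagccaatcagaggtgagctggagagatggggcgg
Gm5165: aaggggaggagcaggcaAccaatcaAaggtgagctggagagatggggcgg
Gm6712: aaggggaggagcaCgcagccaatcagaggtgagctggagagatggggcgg
The remaining locus, Gm38396, was identical to Zfp97 over all 666 bases of the start region. The third set is 120 bases around the summit of the distal region near Zfp677, at chr17:21370462-21370581 on the forward strand, in lower case throughout.
Zfp677 distal region: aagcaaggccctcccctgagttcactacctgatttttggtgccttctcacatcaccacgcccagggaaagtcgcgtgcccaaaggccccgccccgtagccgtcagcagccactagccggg

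Nearly all of the 72 genes had an open start in megakaryocytes. A shared region lay at a start of 68 of 72 members (94.4%), against 59.8% of all coding genes (13004 of 21755). The share was 79.2% among the 293 numbered Zfp genes of other chromosomes (232 open) and 63.2% among the 1822 other coding genes of chromosomes 13 and 17. In single replicates, 70 members had a region in replicate 1 and 68 in replicate 2. The 68 genes used 65 distinct regions, because 3 regions were each shared by a pair: Zfp942 with Zfp943, Zfp758 with Zfp944, and Zfp934 with Zfp935. The first 2 pairs start head to head, 88 and 53 bases apart. No test was made between these sets, since the members were proposed with results of these data in view.

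Of the 4 members without an open start, Zfp960 and Zfp57 had a weak region in replicate 1 only. The fold enrichment there was 4.15 at Zfp960 and 4.44 at Zfp57, a factor that maintains DNA methylation at imprinted genes. Zfp366, known as DC-SCRIPT in dendritic cells, had no region at a start in either replicate, and its nearest shared region lay 2707 bases away with a mean fold of 4.37. Zfp811 had none either, and the nearest shared region, 12291 bases away, was the start region of its neighbour Zfp871. With no read counts in the files, a region below the calling threshold cannot be told from none.

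The strength of the open starts was even among the members. The mean fold enrichment of the 68 had a median of 14.0, with quartiles of 12.8 and 15.7 and a range from 6.47 to 22.3. All 13004 open coding genes had a median of 11.5 with quartiles of 8.66 and 14.3. In all, 53 members (77.9%) reached 12-fold, against 45.3% of open coding genes, and 48 members (70.6%) fell between 12-fold and 18-fold, against 40.7%. The other numbered Zfp genes had a median of 12.7, and 130 of their 232 open starts (56.0%) reached 12-fold. Replicates differed little: over members the fold in replicate 2 relative to replicate 1, on the log2 scale, was −0.03 at the median with an SD of 0.14, against −0.04 and 0.16 over all open coding genes. Replicate 1 was higher at 40 members and replicate 2 at 28, and 63 of the 68 differed by less than 1.2-fold. Over the 65 distinct regions, the log2 folds of the replicates correlated with r = 0.94, where all points come from the same 2 libraries.

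**Figure D1:**
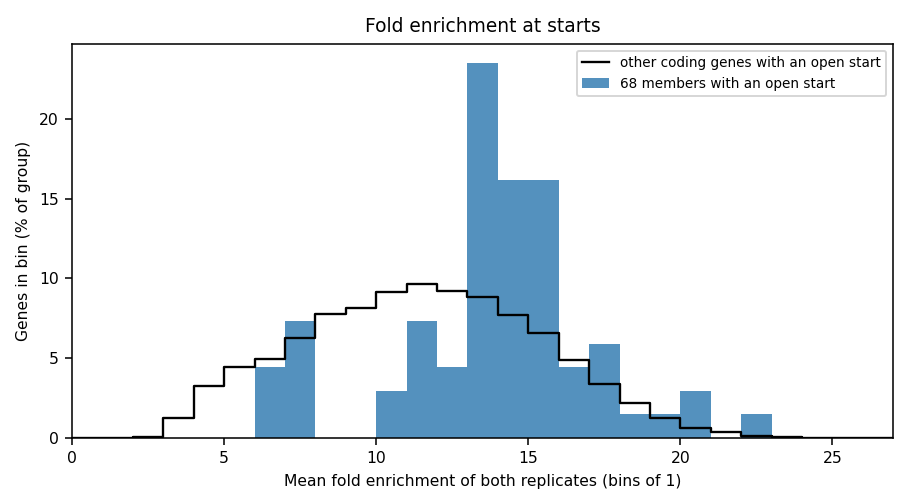
The horizontal axis is the mean fold enrichment of both replicates in bins of 1, and the vertical axis is the share of genes in each bin. Bars are the 68 members with an open start and the line is all other coding genes with one. Members pile up between 13 and 16, 8 members lie under 9-fold, and the other genes spread from about 3 to above 20.

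The strongest start belonged to Zfp97, with 23.1 in replicate 1 and 21.5 in replicate 2 (22.3 ± 1.14, mean ± SD, n = 2 here and for the values that follow). It ranked 17 among the 13004 open coding genes. Its start region has an identical copy at Gm38396, described below, so this value cannot be assigned to Zfp97 alone. Zfp81 followed with 19.9 and 21.3 (20.6 ± 0.992), and Zfp169 with 19.6 and 20.5 (20.05 ± 0.613). All 3 stood above 19 in each replicate, and Zfp81 and Zfp169 differed from each other by less than their spread. Zfp101, the close neighbour of Zfp81, had 19.6 and 19.5 (19.5 ± 0.072). Zfp738 had 19.04 and 17.96 (18.5 ± 0.765) and was the highest of the chromosome 13 cluster. Zfp53, Zfp994, Zfp677, Zfp995 and Zfp458 had means between 16.6 and 17.6. The replicates of Zfp53 alone, 18.5 and 16.7, spanned the means of Zfp994, Zfp677 and Zfp995, so these were not told apart. Zfp677, whose distal region helped to choose the set, had 17.8 and 16.9 at its own start (17.3 ± 0.628). These values depended on taking the highest of the peaks merged into a region. With the merged peaks averaged, Zfp101 had a mean of 9.82, Zfp458 8.77, Zfp677 9.04, Zfp994 9.498, Zfp738 10.1 and Zfp169 12.8, each lower by more than 1.5 times, while Zfp97 had 17.5 and Zfp81 14.3.

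The weakest open starts stood well under these. Zfp52 had 6.63 and 6.32, Zfp945 had 5.72 and 7.66, and Zfp523 had 7.04 and 6.47. Zfp184 had 6.64 and 8.16, Zfp459 had 7.25 and 7.62, and Zfp820 had 7.40 and 8.23. With Zfp934 and Zfp935 these were the 8 members under 9-fold, and none of the 68 lay between 8 and 10 in mean fold. In both replicates each of the 8 stayed below the median of all open coding genes. Zfp459, Zfp820 and Zfp523 were also the 3 open members missing from the list of replicate 1 thresholded on the irreproducible discovery rate (IDR). These genes were named after their values were seen.

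**Figure D2:**
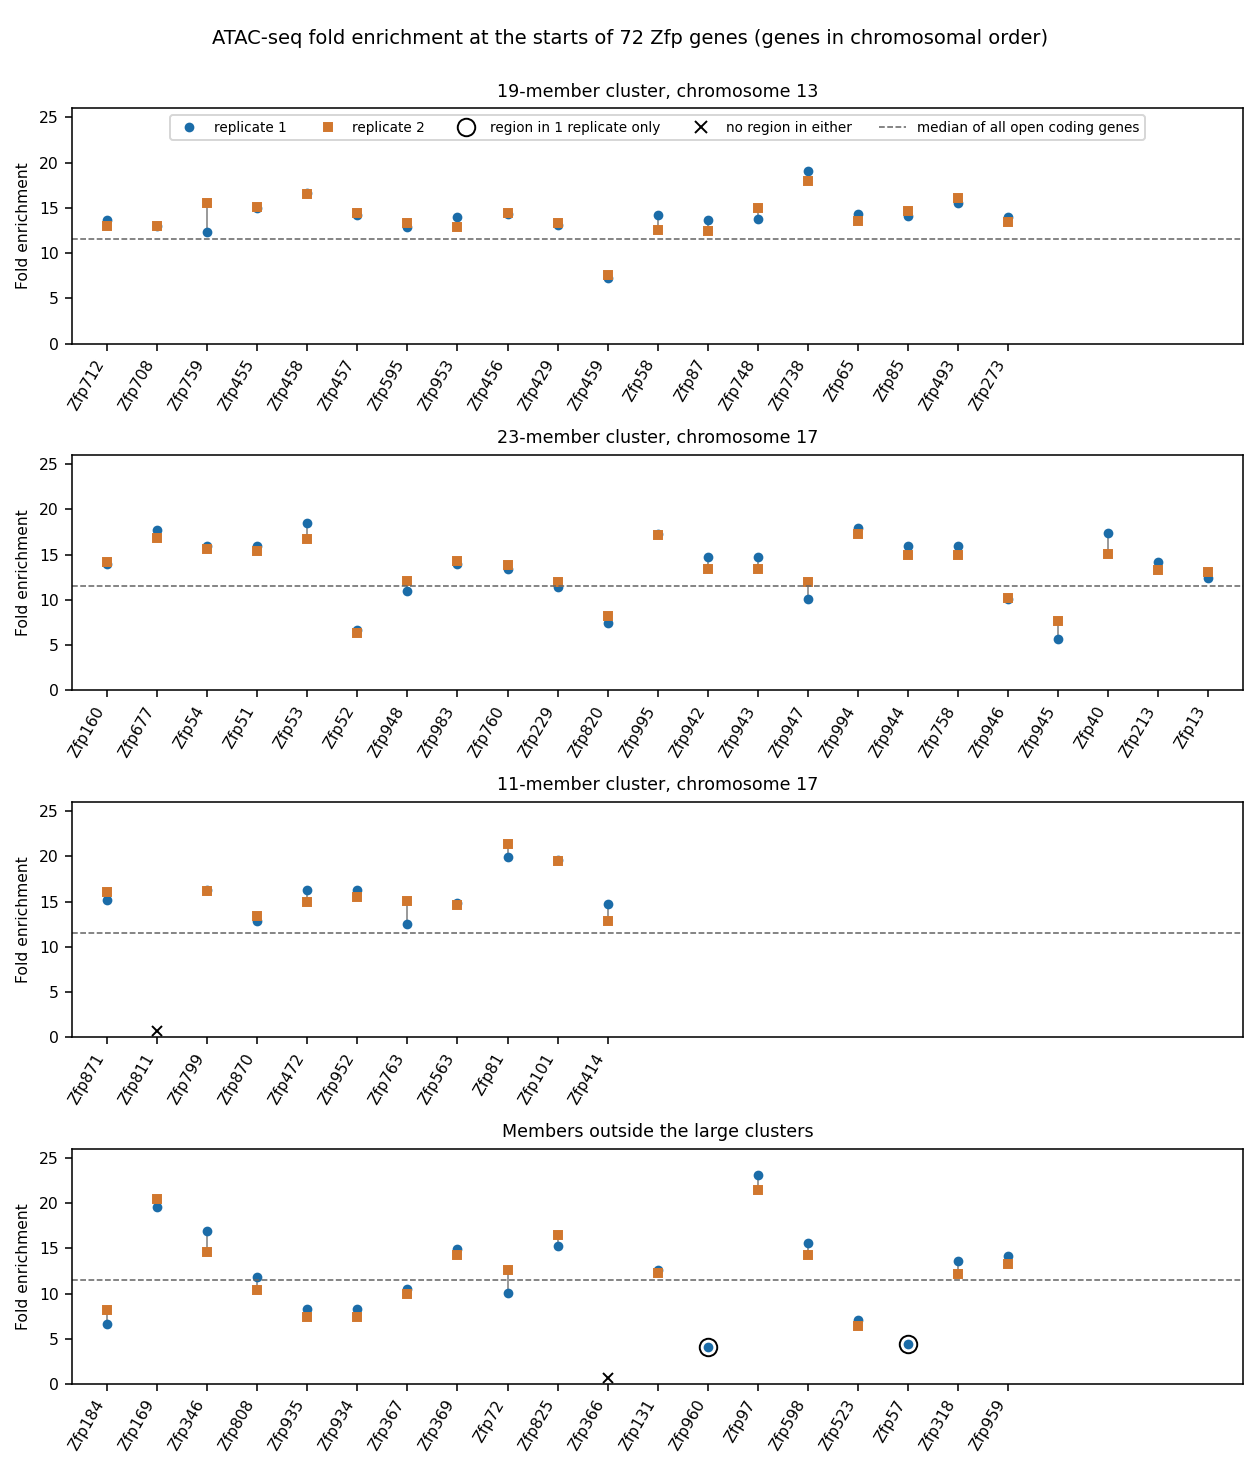
Each column is 1 member, in chromosomal order within its panel, and the vertical axis is fold enrichment at the start region, with circles for replicate 1, squares for replicate 2 and a line joining them. The dashed line is the median of all open coding genes, 11.5. Rings mark Zfp960 and Zfp57, with a region in 1 replicate only, crosses mark Zfp811 and Zfp366, with none, and 18 of the 19 members in the chromosome 13 panel lie above the line.

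The openings were centred on the annotated starts. In 57 of the 68 (83.8%) the summit lay within 100 bases of a start, against 69.3% of all open coding genes. The share was 76.3% among the open numbered Zfp genes of other chromosomes. The median position over the members was −20.5 bases, that is, upstream. Region width had a median of 901 bp, against 873 bp. The gene's own 5′ end lay inside a shared region in 84.7% of the 72 members and in 50.1% of all coding genes, shares that include genes without an open start. Among genes with an open start, the strongest start region covered it in 88.2% of members and 77.7% of all coding genes. The share was 84.9% among the numbered Zfp genes of other chromosomes, and in the chromosome 13 cluster it was 13 of 19 (68.4%). Zfp13, with its summit 285 bases downstream of a start, and Zfp948, with its summit at −587 bases, were among the 11 that lay farther out. At the edge of the 500 bp window, a second region of 4.88-fold lay 489 bases from a start of Zfp944, just inside, and 542 bases from a start of Zfp758, just outside.

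**Figure D3:**
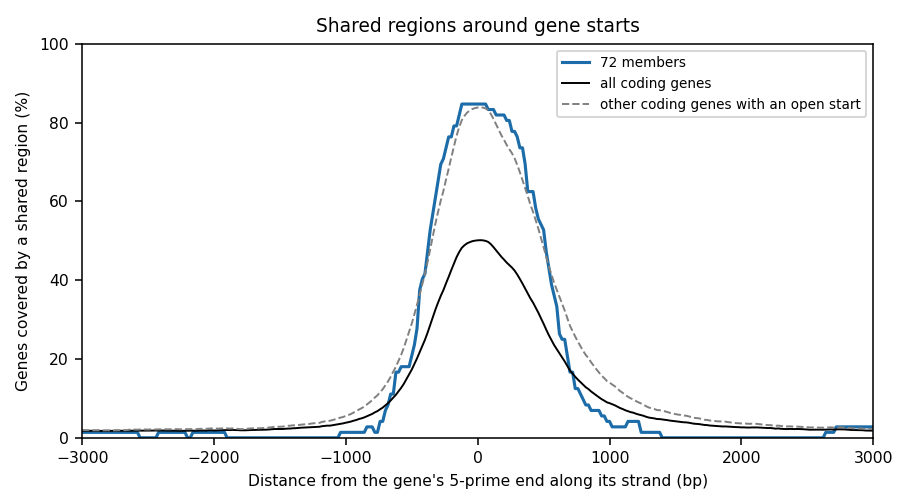
The horizontal axis is the distance from the 5′ end of the gene along its strand in bp, and the vertical axis is the share of genes covered by a shared region. The curve of the 72 members reaches 84.7% at the 5′ end, that of all coding genes 50.1%, and that of other coding genes with an open start 83.8%. At 1000 bp downstream the members are at 4.17% and the open genes at 14.0%.

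The genes fell into 3 large clusters, joined where gene bodies lay within 500 kb, which held 53 of the 72 members. The chromosome 13 cluster spans 0.788 Mb with 19 members, and all 19 were open. Its folds were tight, with a median of 13.9 and quartiles of 13.3 and 14.4, and 18 of the 19 reached 12-fold, the exception being Zfp459. Replicates of this cluster differed by a median SD of 0.398. Of 11 other coding genes inside the span, 10 were open too, but not at 10 further regions: Gm28044, Gm28041 and Gm26965 share the start regions of members, and the remaining 7 genes used 6 regions, since Gm49345 shares that of Zfp729a. Among the 10 were Rsl1, a repressor of sex-specific liver genes, at 11.8 and 12.8, and the lettered relatives Zfp874a, Zfp874b, Zfp729a and Zfp729b at means of 13.3 to 15.7. The related gene Rslcan18 had no region in either replicate.

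The larger cluster of chromosome 17, chr17:21008903-23599487, spans 2.59 Mb with 23 members, and all 23 were open. Its folds had a median of 14.1 and ranged from 6.47 at Zfp52 to 17.6 at Zfp53. Among the 14 other coding genes in that span only 1 was open, CT030661.1 at 16.7. The other 13 included 12 vomeronasal receptor genes, which encode pheromone receptors of sensory neurons, and none of the 12 had a region at a start in either replicate. Over the genome, 2 of 331 vomeronasal receptor genes were open (0.604%). Open zinc finger starts and receptor starts without a region lay in the same stretch of chromosome.

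The smaller cluster of chromosome 17, chr17:32765496-33631779, spans 0.866 Mb with 11 members, of which 10 were open and Zfp811 was not. Its median of 15.6 was the highest of the 3, all 10 reached 12-fold, and Zfp81 and Zfp101 were its strongest. Of 13 other coding genes 5 were open, including Zfp955a (17.5 ± 1.87) and Zfp955b (16.8 ± 0.765), while the 4 olfactory receptor genes in the span had no region in either replicate. The 19 members outside these clusters had 16 open starts with a median of 12.7 and a wider spread, with quartiles of 9.66 and 15.2.

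Distal regions were fewer around these genes than around coding genes as a whole, mainly inside the large clusters. A distal region was a shared region more than 1 kb from any annotated start, and 88 of the 48720 such regions lay within 50 kb of a member's start. At least 1 lay near 41 of 72 members (56.9%), against 77.3% of all coding genes, and 31 members had none. The count per gene had a median of 1 and a mean of 1.65, against 3 and 3.67. Inside the clusters, at least 1 lay near 9 of 19 members on chromosome 13 (47.4%) and near 14 of 23 and 4 of 11 members on chromosome 17 (60.9% and 36.4%). Outside them it was 14 of 19 members (73.7%), with a mean of 2.89 and 55 of the 88 regions. The numbered Zfp genes of other chromosomes were at 70.3%, with a mean of 2.64. Per megabase, the chromosome 13 cluster held 7.61 distal regions and the chromosome 17 clusters 9.26 and 11.5, against 19.04 over the genome. Inside gene bodies, away from starts, the members held 18 shared regions (0.982 per 100 kb, against 2.76 over all coding genes). None was held by 59 of the 72 members, by 12764 of the 21755 coding genes and by 210 of the 293 numbered Zfp genes of other chromosomes. Of the 88, 43 had a member as their nearest coding gene and 45 another gene. Their mean fold had a median of 7.12, the same as over all distal regions (7.12).

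**Figure D4:**
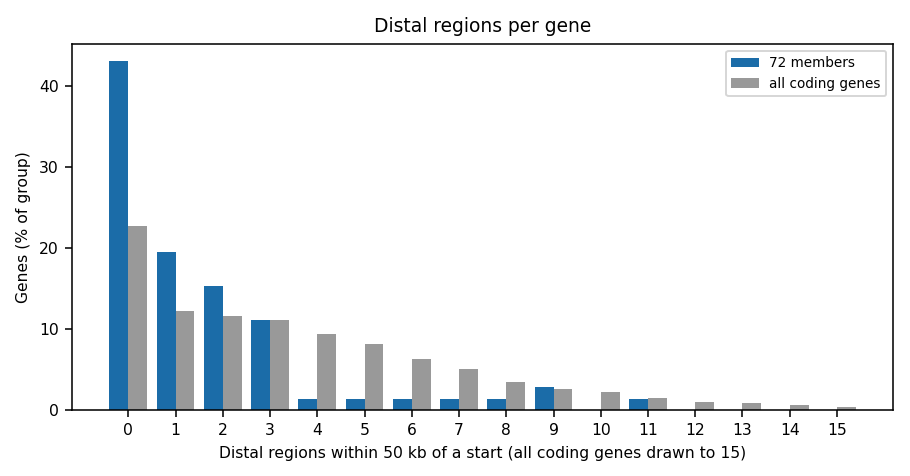
The horizontal axis is the number of distal regions within 50 kb of a start and the vertical axis is the share of genes. Bars are the 72 members and all coding genes, the latter drawn up to 15. No distal region was found near 43.1% of members and 22.7% of all coding genes.

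The members with most distal regions lay mainly outside or at the edge of the clusters. Zfp13 had 11 and its neighbour Zfp213 had 9, at the end of the larger chromosome 17 cluster. Zfp184 had 9, Zfp523 had 8, Zfp131 had 7, Zfp57 had 6, Zfp598 had 5 and Zfp169 had 4. Of these, Zfp57 had no open start in both replicates, so open distal regions did not go with an open start there. At the 50 kb limit, a region of 7.38-fold 49.7 kb from Zfp367 was just inside and one of 7.19-fold 50.2 kb from Zfp934 was just outside.

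The strongest distal region within 50 kb was the one near Zfp677, at chr17:21370034-21370680, with 24.96 and 25.24 (25.1 ± 0.194). It lay 13.1 kb upstream of the Zfp677 start, in an annotated intron, and ranked 10 among all distal regions. It was stronger in both replicates than the start region of Zfp677 itself. No other place in the genome matched it at 90% identity over 80% of its length. The next, chr13:67463340-67464356, had 21.4 and 20.8 and lay 36.1 kb from Zfp58 and 11.7 kb from Zfp874a. Regions of 18.5 ± 0.659 and 17.97 ± 0.766 lay 14.95 kb upstream of Zfp169 and 9.93 kb upstream of Zfp131. Those near Zfp273 (15.95 ± 1.38), Zfp946 (15.8 ± 1.47 and 14.3 ± 1.44), Zfp13 (14.9 ± 0.112), Zfp948 (14.8 ± 1.53) and Zfp944 (14.2 ± 1.65) completed the 10 strongest. Replicate 2 was the higher in each of these last 6 regions.

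The region nearest to Zfp960 was of another kind. At chr17:17004571-17005230 it had 25.3 and 26.5 (25.9 ± 0.828), but it lay 58.9 kb from the Zfp960 start, so Zfp960 had no distal region within 50 kb. A region of 22.66 and 22.99 (22.8 ± 0.234) at chr17:17178740-17179414 lay 57.3 kb from Zfp97 in the same way. Both were distal only by the GENCODE annotation. In RefSeq, the first covers the start of Gm51425 and the second the start of Gm38396, both annotated there as protein-coding. Over the 88 distal regions within 50 kb, 5 (5.68%) lay within 1 kb of a RefSeq start, against 4.16% of all distal regions.

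Both regions were copies of the Zfp97 start region. That sequence occurred at 7 loci between chr17:16950942 and chr17:17294418, a span of 343 kb, each 53.6 to 59.6 kb from the one before, with 90.7% to 100% identity to Zfp97. RefSeq places a gene start within 50 bases of every one of the 7. A shared region lay at 6 of the 7 loci, with mean folds from 20.9 at Gm5165 to 25.9 at Gm51425. BC002059 had 25.5 in both replicates and Gm6712 had 23.7 and 22.1. The exception was Zfp960 itself: its start, at 93.2% identity to Zfp97, had 4.15 in replicate 1 and no region in replicate 2. Identity alone did not order the loci, since Gm51425 at 90.7% was the highest of the 7.

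In the 50 bases shown, Zfp960 differed from Zfp97 at 3 positions, Gm5165 at 2, and BC002059 and Gm6712 at 1. Within these 50 bases the letters GGGCGG, a GC box, were present in 6 of the 7 loci on 1 of the strands and absent from Zfp960. They were not in the window around the summit of the Zfp97 start, which was used for the motif counts below. The letters CCAAT were present in all 7. In 50-base windows just upstream of the 5′ end of all 13004 open coding genes, GGGCGG was found in 28.8% and CCAAT in 11.3%, both strands searched. The 50 bases of the loci were placed by their match to Zfp97 and not by a 5′ end, so the positions differ too. The 7 loci are copies of 1 sequence, so their counts are not separate finds and cannot be set against these shares. These matches describe letters and show no bound factor. Whether the missing GC box bears on the low fold of Zfp960 was not tested. How reads that fit several copies were placed is not given in the sources used here, so the folds of the 7 loci may not be independent, and the part of this in the values was not tested. Zfp97 and Gm38396 are identical over the whole start region, so reads wholly inside it fit both. Their folds cannot be taken as separate measurements.

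**Figure D5:**
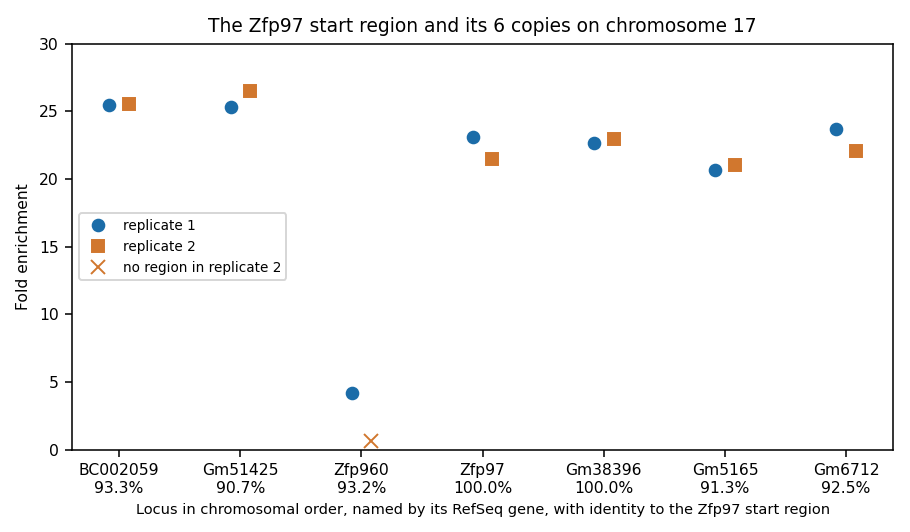
The horizontal axis lists the 7 loci in chromosomal order, named by their RefSeq gene, with the identity of each to the Zfp97 start region, and the vertical axis is fold enrichment. Circles are replicate 1, squares replicate 2, and the cross marks a locus with no region in replicate 2. Of the 7 loci, 6 lie between 20.7 and 26.5, and Zfp960 stands alone at 4.15.

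A second family of copies surrounded Zfp808 on chromosome 13. Its start region, at 11.8 and 10.4 (11.1 ± 1.01), had 10 copies at 90.77% to 97.03% identity, and all 10 carried a shared region. Their mean folds ran from 7.85 at the start shared by Zfp934 and Zfp935 to 22.73 at Gm36298, with 5 of the 10 above 20. As for the Zfp97 copies, these folds may not be independent, because the placement of reads that fit several copies is not given, and this was not tested. RefSeq starts Zfp935 not there but at another copy, where the replicates had 21.04 and 22.04. The value of Zfp935 therefore rested on the annotation, 7.85 with the GENCODE start and 21.5 with the RefSeq start, and it was the only member whose value differed between the annotations.

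In all, 14 of the 65 distinct start regions, serving 17 genes, had at least 1 other copy. Their median fold was 14.1, against 13.8 for the 51 regions without one, and 40 of those 51 (78.4%) reached 12-fold. Among the 88 distal regions 8 had a copy, and none of the start or distal regions matched mitochondrial DNA over 100 bases or more.

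The start regions were poorer in GC and CpG than most open promoters. In windows of 300 bases around the summit, GC content had a median of 54.8% over the 68 members, against 63.3% over all open coding genes and 60.7% over the other numbered Zfp genes. The ratio of observed to expected CpG had a median of 0.576, against 0.795 and 0.764. The chromosome 13 cluster was lowest, at 51.0% and 0.455, while 18 of its 19 members had folds above the median of open coding genes. Bases masked as repeats made up a median of 5.50% of the start regions, against 5.41%, and 12.5% of the distal regions, against 10.1% of all distal regions.

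Short motifs were counted on both strands in the same windows. The letters AGATAA, known for GATA1 and its relatives in blood cells, were in 2 of 68 members (2.94%, against 4.58% of all open coding genes), TGTGGTT (RUNX) in 2 (2.94% against 3.94%) and CCGGAAG (ETS) in 12 (17.6% against 19.5%). The GC box GGGCGG was in 30 (44.1% against 66.5%), with only 4 of these in the chromosome 13 cluster and 19 in the chromosome 17 clusters. CCAAT was in 32 (47.1% against 38.1%), with 3 in the chromosome 13 cluster and 20 in the chromosome 17 clusters. The cyclic AMP response element TGACGTCA was in 8 (11.8% against 3.51%), of which 6 lay in the chromosome 13 cluster: Zfp457, Zfp595, Zfp953, Zfp87, Zfp65 and Zfp493. Some of these windows are related, such as those of Zfp595 and Zfp953, which aligned at 89.7% identity over 243 bases. The 8 are therefore not all separate finds. The NRF1 and YY1 consensus letters were each in 1 member (1.47%, against 1.87% and 2.64%). No match says only that these letters are not in this window.

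Runs of bases shared within each cluster were found by searching the windows of that cluster, so their counts there are descriptions. The 18-base run of the chromosome 13 cluster, GACTTGTGGGAAATGTAG, was present with at most 3 mismatches in 17 of its 19 start windows and in Zfp72 outside. It was in none of the 23 and 10 windows of the chromosome 17 clusters. Of all 13004 windows, 1.22% held it (159, of which 142 were at genes other than the cluster's members). Some of the 142 lie inside the cluster, since Gm28044, Gm28041 and Gm26965 use start regions of members that hold the run. Read on the other strand, the run holds letters of the consensus known for the zinc finger factor ZNF143, which is background and no measure of that factor here. The 2 members of the cluster without it were Zfp708 and Zfp459, at 13.01 ± 0.0244 and 7.43 ± 0.265. A second run, TCTGACATGGAGGTTGGT, lay 19 to 104 bases downstream of the start in 16 of the 19. Of all windows, 0.246% held it (32, of which 16 were at genes other than the cluster's members). In the smaller chromosome 17 cluster, 5 of 10 windows held the run TGAACTGCCCAATGAGGA. This run was found in 0.0769% of all windows (10, of which 5 were at genes other than the cluster's members). It includes the letters CCAAT, and its matches are in capitals in these 4 lines, read along each gene's strand.
Zfp81: cctgcaTGAACTGCCCAATGAGGAgcatgg
Zfp799: gctgtgTGAACTGCCCAATGAGGAgtttcg
Zfp763: tattcaTGAACTGTCCAATGACGAaccggt
Zfp101: cttgctGGAACTGTCAAATGAGGAacacgg
The best-fitting run of the larger chromosome 17 cluster, TGGGCGGGGCTAGGGGAG, includes the GC box and was at 9 of its 23 genes, which used 7 of its 21 distinct windows. Of all windows, 1.46% held it (190, of which 181 were at genes other than the cluster's members). When the 300-base windows were aligned to each other, 75 of 171 pairs aligned in the chromosome 13 cluster, with a median identity of 81.0%. In the chromosome 17 clusters 28 of 210 and 3 of 45 pairs aligned, and between different clusters 1 of 799, Zfp101 with Zfp948. Of 750 pairs of a cluster window with a window outside the clusters 11 aligned, all of them with Zfp72, and none of these 12 alignments reached 100 bases.

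Genes of the silencing machinery that KRAB zinc finger proteins use were listed for comparison. Of 28 listed genes, which include the zinc finger genes Zfp809, Zfp57 and Rex2, 25 had an open start (89.3%), against 59.8% of all coding genes, with a median fold of 12.7 against 11.5. The list was compared with no test, so nothing particular to it is read from these counts. Suv39h1 (18.2 ± 0.646), a histone H3 lysine methyltransferase, Mphosph8 (18.1 ± 0.317), a chromodomain subunit of the HUSH silencing complex, and Hdac1 (16.3 ± 1.29), a histone deacetylase, were the highest. The corepressor Trim28 had 9.58 and 10.1, and Setdb1 had 12.99 and 12.38, both named after their values were seen. The 3 without an open start were Chd3, a remodeller of the NuRD complex, Rex2, and Zfp57, which is also a member.

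Depth is unknown because the files hold no read counts. Replicates 1 and 2 held 79800 and 81707 regions, 69539 were shared, and the median fold was 6.65 and 7.01. As a check of the labelled cell type, 10 of 19 megakaryocyte genes had an open start, but so did 5 of 6 neutrophil genes, 3 of 5 macrophage genes, 3 of 6 erythroid genes, 2 of 4 B cell genes, 1 of 4 T cell genes and 0 of 3 hepatocyte genes. The megakaryocyte share, 52.6%, lay below the 59.8% of all coding genes, and the median fold of the 10 was 8.51, against 11.5. These counts therefore do not set the labelled cell type apart from the other blood cells. The part of other blood cells in the values above was not tested.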

How the data were processed

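The 2 libraries form 1 group, taken from the labels, so no test between groups and no p-value of a comparison was computed. Per the deposited file list, peaks were called on filtered mm10 alignments of each sample, or of both pooled for the series' lists, with a list of excluded regions. The aligner, the peak caller and their versions are not given in the sources used here. The fold enrichment used is a ratio, column 7 of the peak lists the authors deposited, and column 8, the −log10 p of each peak as deposited, served as an alternative to it. All value columns were mapped, with 0 left over. The 34 and 39 rows of replicates 1 and 2 outside chromosomes 1 to 19 and X were not used.

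Overlapping peaks of a replicate were merged, keeping the highest fold, and regions of the 2 replicates overlapping by at least 1 base were taken as shared. Distances were taken to every transcript start of GENCODE M21. Interval steps were tested on simulated peaks with known answers. Regions were compared with the genome by BLAST+ 2.17.0, a copy being a match of at least 90% identity over at least 80% of the region. Runs of 18 bases were searched in 300-base windows with up to 3 mismatches. Python 3.11.15, pandas 2.3.3, numpy 2.4.6 and samtools 1.23.1 were used. A planned description of protein features was not run, since no protein table was used here.

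The members and lists were chosen with earlier results of these data known. The genes named are Zfp960 and Zfp677, the 10 members with the highest fold, those with a region in 1 replicate or none, the 8 with most distal regions, those nearest the 10 strongest distal regions, and, of the machinery list, the 3 highest and those without a region. Other genes were named after their values were seen.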

Additional observations from a re-analysis of the deposited data

How the results depend on the processing

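The count of members with an open start was 68 and stayed within 62 to 70 under the 9 planned changes of list, overlap, threshold, window and set of starts, the lowest with the 5′ end of a gene as its only start, and was 68 with RefSeq starts, an alternative chosen after seeing the data. Over the 9 planned changes the share of all coding genes with an open start moved too. It ran from 53% with the IDR-thresholded lists (65 members) to 63.2% with the replicated-peaks list of the series (70 members). With the 5′ end as the only start it was 54.4%, and it was not computed with RefSeq starts. With 1 replicate left out the count of members was 68 to 70, against 60.9% to 61.3% of all coding genes. The count of distal regions within 50 kb, 88, depended on the list and the distance: it was 39 with the IDR-thresholded list of each sample, 50 within 20 kb and 146 within 100 kb. The pooled lists of the series gave 128 and 71, and 1 replicate alone 100 to 109. Without regions that have another copy it was 80, and without those at a RefSeq start, chosen after seeing the data, 83. The median fold at starts, 14.0, was 10.1 when the peaks merged into a region were averaged, and 14.0 to 14.2 with 1 replicate left out. Averaged values were computed for members only. The 10.1 therefore cannot be set against the 11.5 of all open coding genes, which rests on the highest peak. The order of the members depended on the measure: of the 10 highest by fold, 4 were among the 10 highest by −log10 p, 2 when merged peaks were averaged, and 9 to 10 with 1 replicate left out. The cause was not tested. No paired analysis was possible because all samples form 1 group. Read depth is unknown, which limits what can be said of starts without a region, and n = 2 limits every SD.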

Other observations

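Distal regions within 50 kb of a member that lay within 1 kb of a RefSeq start numbered 5. Besides those at Zfp595 and Zfp52, they included a region of 13.3 ± 1.01 at the start of Gm10509, a RefSeq coding gene in the larger chromosome 17 cluster, and one of 14.1 ± 1.05 at the start of the long non-coding RNA Gm41603, 39.0 kb from Zfp959. The genes of olfactory receptors, of which 4 lay in the smaller chromosome 17 cluster, had an open start in 25 of 1135 cases over the genome (2.20%).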
